A study of Cucurbita pepo with 18 samples.

Results

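GDSL esterases/lipases are a large family of plant hydrolases, and 100 genes of the family were found among the 27868 annotated genes of *Cucurbita pepo* in the count table. A gene was taken as a member when its deposited description named a GDSL esterase/lipase as the closest protein or carried the GDSL lipase domain PF00657. Rows with PF13839, the domain of the trichome birefringence-like acetyltransferases and esterases, were to be left out, and 0 of the rows that met the first condition carried it. None of the members lay among the 1616 further loci outside the annotation.

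The enzymes are named after the Gly-Asp-Ser-Leu motif that carries the active-site serine, and many of them are secreted to the cell wall. In tomato the cutin synthase CD1 of this family links hydroxylated fatty acids into the cutin polymer that seals the outer surfaces of the plant. Other members in *Arabidopsis* lower the fatty acid content of seeds (the SEED FATTY ACID REDUCER, or SFAR, enzymes), take part in immunity (GLIP1 and GLIP2), or sit on the pollen coat (the EXL proteins), and a GDSL enzyme of rice removes acetyl groups from arabinoxylan.

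The RNA of developing seed coats was sequenced from pumpkins with hulled (H) or hull-less (HL) seeds at 5, 10, and 20 days after pollination (DAP), with 3 biological replicates in each of the 6 groups and 18 libraries in all. Hulled seed coats lay down lignified secondary cell walls (SCWs), while hull-less seed coats, whose *CpNST1* gene carries an insertion that ends translation early, do not. No treatment was applied to any group, and the labels give no line name, plant age, or number of plants behind a library. H and HL plants can differ at many loci, so an effect of *CpNST1* and an effect of other loci that differ between them cannot be told apart here.

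The libraries held 13827773 to 18443048 counts. The 8 genes of the seed coat list, among them the homologs of SEEDSTICK and anthocyanidin reductase, summed to 733 to 2154 counts per 1e6 scaled counts (CPM) and at least 7 of the 8 had counts in every group. Replicates within the other 5 groups correlated across genes with r from 0.966 to 0.992, while those of H at 10 DAP ranged from 0.889 to 0.975. At 20 DAP the green tissue genes (photosystems and light harvesting, 107 genes) summed to 5296 to 6012 CPM in H and 12776 to 14255 CPM in HL. The study's list of SCW orthologs summed to 4871 to 5686 CPM in H and 2206 to 2503 CPM in HL. Seed storage proteins and oleosins (24 genes, a list made after their values were seen) summed to 8830, 6870, and 1335 CPM in the H libraries at 20 DAP and to 2899, 242, and 94.5 CPM in the HL libraries, against 43.3 to 179 CPM at 5 and 10 DAP. The longer list for embryo and endosperm (112 genes, with late embryogenesis abundant proteins) summed to 11315, 9450, and 3909 CPM in H and 4557, 1862, and 2112 CPM in HL at 20 DAP. The part of these other cell types and tissues in the results below was not tested.

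Of the 100 members, 85 carried the GDSL domain and 92 had a GDSL esterase/lipase as their closest protein. In 4 others the closest protein was acetylajmalan esterase, an enzyme of alkaloid synthesis in *Rauvolfia*, and in 4 it was of another kind next to a GDSL domain. The members lay on 21 linkage groups, counting LG00, which collects sequence not placed on a linkage group. Of the members, 30 stood in 12 clusters in which neighbors were at most 20 kb apart. More than 3 counts were found in at least 1 library for 75 members, and 25 had 3 counts or fewer everywhere. Those 25 included all 4 acetylajmalan esterase homologs, all 4 homologs of the *Arabidopsis* protein At2g30310, and all 5 genes of the largest cluster, on LG05. A count of 0 allows up to 3 counts, or 0.137 to 0.226 CPM depending on the library.

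The family was led by a few genes. On the length-scaled measure of the authors, the fragment count scaled by gene length and library size (FPKM), 58 members reached a group mean of 1, 31 reached 10, and 5 reached 100. The 3 leading members made up 42.0% of the summed FPKM of the family over all libraries. Summed over the family, the median library reached 477 FPKM at 5 DAP, 866 at 10 DAP, and 1252 at 20 DAP in H. The matching medians in HL were 551, 1535, and 909 FPKM. The highest median sum was thus at 20 DAP in H and at 10 DAP in HL, and the H libraries at 10 DAP spread from 402 to 1028 FPKM. The members also differed in the group of their highest mean, which was H at 20 DAP for 19 members and HL at 5 DAP for 16. The plot of the tested members by library shows this spread of patterns.

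**Figure D1:**
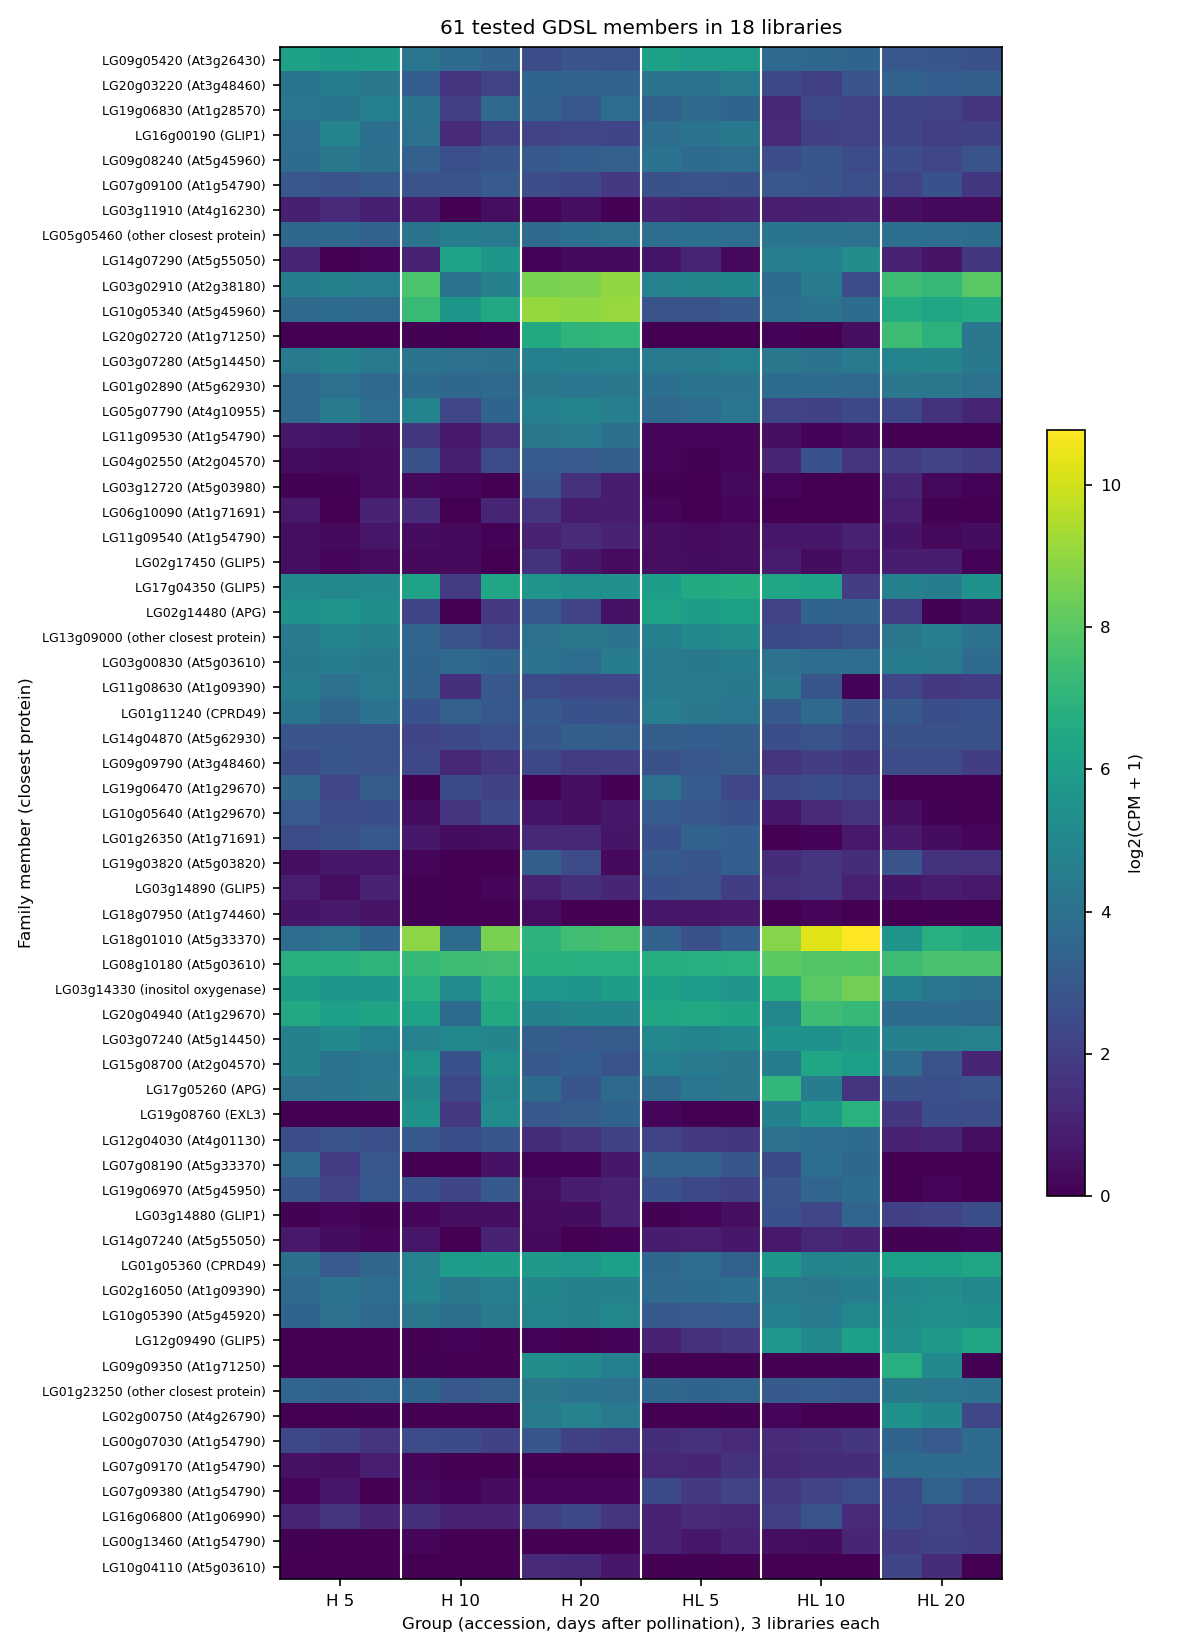
The 61 members tested in at least 1 comparison (rows, with their closest protein) in the 18 libraries (columns, 3 for each accession and stage, in the order of the replicate numbers). Color gives log2(CPM + 1), and rows are ordered by the group with the highest mean CPM. Cp4.1LG18g01010 is brightest in HL at 10 DAP, where its 3 libraries reach 445 to 1746 CPM.

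The first group of members is related to cutin synthases. Cp4.1LG18g01010 (LG18, 2578224 to 2581509, Cp4.1 coordinates of the deposited table) is closest to At5g33370, the *Arabidopsis* CUTIN SYNTHASE2 (CUS2), and had the highest mean level of the family, 172 FPKM over all libraries. Its H libraries held 13.3, 15.5, and 10.2 CPM at 5 DAP, 472, 12.9, and 388 CPM at 10 DAP, and 123, 177, and 195 CPM at 20 DAP. Its HL libraries held 9.42, 5.37, and 8.37 CPM at 5 DAP, 445, 1221, and 1746 CPM at 10 DAP, and 47.0, 109, and 93.6 CPM at 20 DAP. The gene was thus low in all young seed coats and high at 10 DAP in 5 of 6 libraries, with H replicate 2 at the level of 5 DAP. In HL at 10 DAP it alone took 28.8% to 55.8% of the summed family FPKM. From 5 to 20 DAP it rose by 3.67 (SE 0.23) on the log2 scale in H and by 3.43 (SE 0.37) in HL, with adjusted p-values of 1.06e-05 and 0.000216 in edgeR's quasi-likelihood test. The HL over H difference at 10 DAP was 1.97 with an SE of 1.18 (edgeR adjusted p = 0.305), so it was not larger than the spread between these libraries. At 20 DAP it was -0.99 (SE 0.32, adjusted p = 0.0440), just short of the fold limit of 1.

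The second member closest to At5g33370, Cp4.1LG07g08190, carries a further domain beside the GDSL domain and had another time course. It held 12.3, 2.75, and 6.67 CPM in H at 5 DAP and 9.42, 9.83, and 6.45 CPM in HL. At 10 DAP it held 0, 0, and 0.458 CPM in H and 4.32, 14.2, and 11.2 CPM in HL, and at 20 DAP 0.064 to 0.641 CPM in H and 0 in every HL library. The gene had thus dropped by 10 DAP in H but not in HL. The HL over H difference at 10 DAP was called (6.01, SE 1.18, edgeR adjusted p = 0.0231), but the call was lost without any 1 of the 3 HL libraries (adjusted p = 0.0538 to 0.0918). From 5 to 20 DAP the gene fell by 4.75 on the log2 scale in H (adjusted p = 0.00189) and was at least 46.8-fold lower in HL (adjusted p = 0.000111).

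The homologs of At1g54790, the *Arabidopsis* SFAR1, formed the largest set with one closest protein, 8 members that were all detected. They lie as 3 neighbors on LG07, 2 neighbors on LG11, and 3 genes on LG00, which collects sequence not placed on a linkage group. At 20 DAP 4 of the 8 were called higher in HL and 2 lower, beside 8.37% and 12.7% of all features tested. How reads shared by near-identical copies were counted is not given in the sources used here, so the split of reads between these neighbors is uncertain.

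On LG07, Cp4.1LG07g09170 (8229321 to 8232744) was found in H only in young seed coats, with 8, 7, and 19 counts at 5 DAP. It had 2, 0, and 0 counts at 10 DAP and none in any library at 20 DAP. In HL it held 26, 26, and 44 counts, then 18, 22, and 21 counts, then 216, 224, and 190 counts. The accessions did not overlap at any stage, and the gene took opposite courses, to nothing detectable in H and to 12.5 to 12.9 CPM in HL. The gene was at least 64.3-fold higher in HL at 20 DAP (edgeR adjusted p = 0.000111), and this call held in all alternatives run. The smaller differences at 5 DAP (1.50, SE 0.44, adjusted p = 0.0422) and 10 DAP (at least 8.02-fold, adjusted p = 0.0135) were less stable. The first was lost without any 1 library other than H replicate 3 (adjusted p = 0.0820 to 0.122). The second was lost without H replicate 3 or any 1 HL library (0.0524 to 0.0636).

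Its neighbor Cp4.1LG07g09380, 3909 bases further along, showed a steadier difference. H libraries held 3, 12, and 0 counts at 5 DAP, then 3, 1, and 4 at 10 DAP, and 2 in each of the oldest. HL libraries held 86, 54, and 79 counts, then 33, 49, and 61, then 69, 158, and 78. Every HL library stood above every H library of its stage. The difference was 3.87 (SE 0.73, edgeR adjusted p = 0.00864) at 5 DAP and 4.36 (SE 0.55, adjusted p = 0.00734) at 10 DAP on the log2 scale, and at least 30.8-fold (adjusted p = 0.000298) at 20 DAP. These 3 calls held in all alternatives run. The third neighbor, Cp4.1LG07g09100, listed without a GDSL domain, held 2.31 to 7.60 CPM in all 18 libraries. At 5 DAP its HL libraries (5.32 to 6.04 CPM) lay just below its H libraries (6.11 to 7.33 CPM). Its accessions overlapped at 10 and 20 DAP. Its HL over H difference was -0.27 (SE 0.15), -0.12 (SE 0.23), and -0.02 (SE 0.40) at the 3 stages, none past the threshold.

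On LG11 the order of the accessions was the opposite. Cp4.1LG11g09530 (8040617 to 8050795) held 0.376 to 0.619 CPM in H at 5 DAP, 0.667 to 2.35 CPM at 10 DAP, and 18.1, 21.4, and 14.8 CPM at 20 DAP. In HL it stayed at 0.0712 to 0.366 CPM at the first stages and had 0 counts in all 3 libraries at 20 DAP. The gene was at least 98.8-fold lower in HL at 20 DAP (edgeR adjusted p = 0.00014) and rose by 5.16 (SE 0.25) on the log2 scale from 5 to 20 DAP in H (adjusted p = 3.94e-06). Its neighbor Cp4.1LG11g09540, 1610 bases away, was far lower, at 1.02, 1.49, and 1.09 CPM in H and 0.536, 0.173, and 0.264 CPM in HL at 20 DAP. These groups did not overlap either, and the difference of -1.86 (SE 0.52) was called (adjusted p = 0.0263), but it was lost without any 1 library other than HL replicate 1 (adjusted p = 0.0589 to 0.0971).

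Of the 3 unplaced homologs, Cp4.1LG00g13460 had at most 2 counts in any H library. In HL it held 20, 13, and 22 counts, then 5, 4, and 16, then 49, 56, and 43 at the 3 stages. It was at least 6.24-fold higher in HL at 5 DAP (edgeR adjusted p = 0.00227) and at least 15.1-fold higher at 20 DAP (adjusted p = 0.000892), and it did not pass the filter on low counts at 10 DAP. Cp4.1LG00g07030 was the one member called in opposite directions at different stages. It held 4.70, 4.40, and 3.34 CPM in H and 1.46, 1.71, and 2.26 CPM in HL at 10 DAP, a difference of -1.18 (SE 0.30, adjusted p = 0.0481) that was lost without any 1 of the 6 libraries (0.0609 to 0.161). At 20 DAP it held 6.40, 3.18, and 2.69 CPM in H and 9.95, 7.50, and 12.7 CPM in HL, a difference of 1.29 (SE 0.37, adjusted p = 0.0304) that was lost without H replicate 2, H replicate 3, or HL replicate 3 (0.0660 to 0.103). Both accessions were apart at each of these stages, with HL below H at 10 DAP and above it at 20 DAP. The last homolog, Cp4.1LG00g09030, stayed at or below 0.298 CPM in all libraries. The plot of the 8 homologs shows that Cp4.1LG07g09170 and Cp4.1LG07g09380 both had their highest mean in HL at 20 DAP. Their neighbor Cp4.1LG07g09100 had its highest mean in H at 5 DAP. The neighbors on LG11 both had their highest mean in H at 20 DAP, at very different levels.

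**Figure D2:**
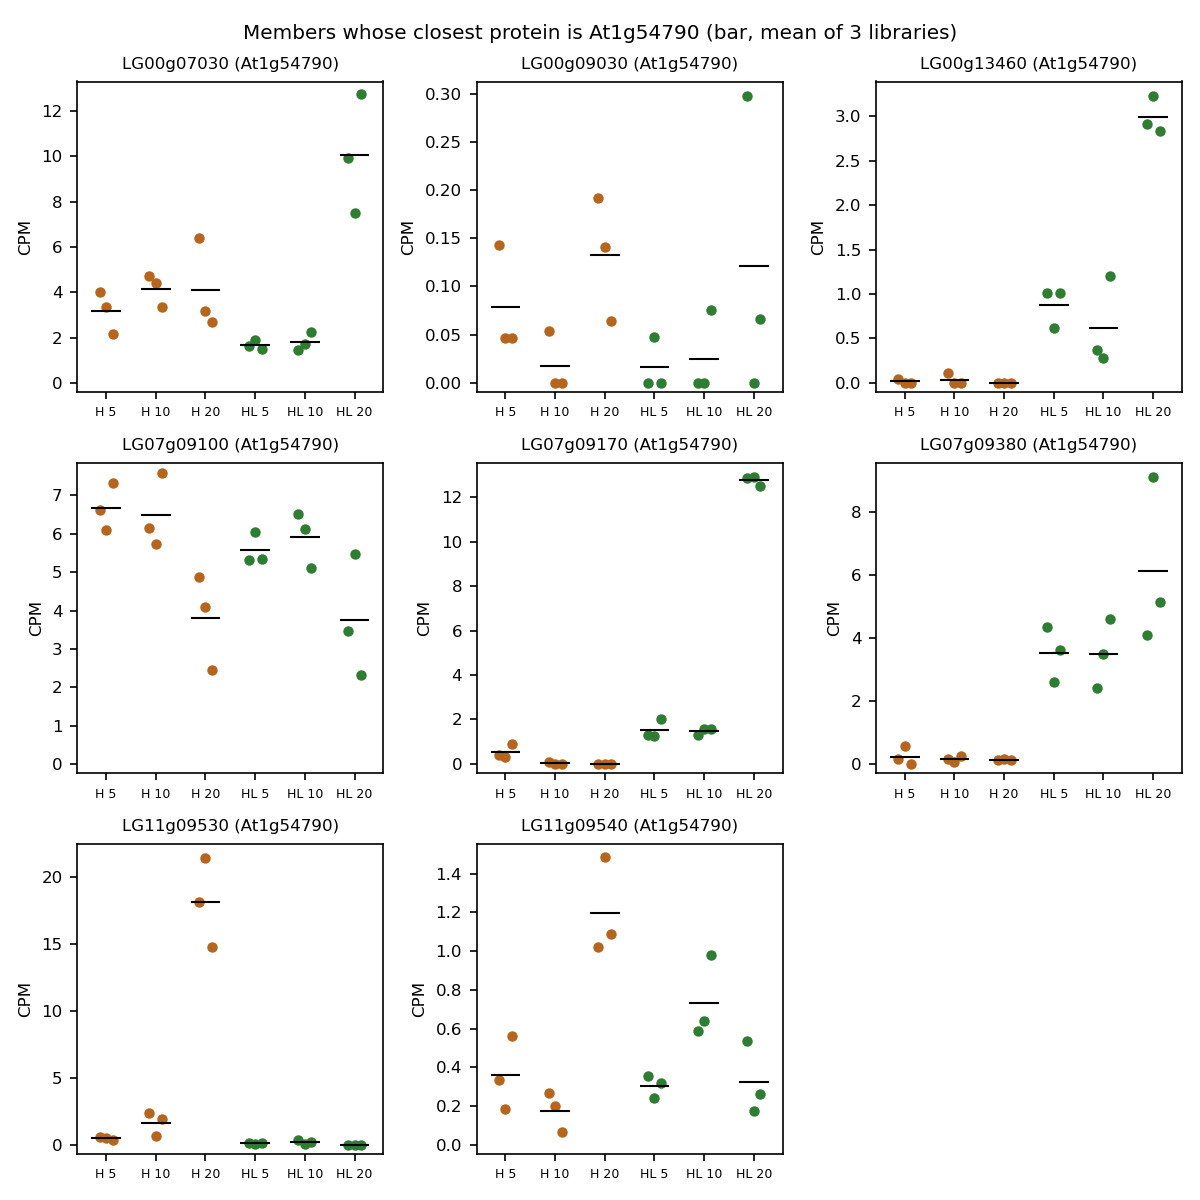
CPM (vertical axis, a scale for each panel) of the 8 members closest to At1g54790 by accession and stage (horizontal axis, DAP). Each point is 1 library, brown for H and green for HL, and the bar is the mean of 3. Cp4.1LG07g09170 and Cp4.1LG11g09530 end at 20 DAP in opposite states, 12.5 to 12.9 CPM against 0 in HL and 0 against 14.8 to 21.4 CPM in H.

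A further SFAR enzyme, SFAR4 (At3g48460), is the closest protein of a pair of members. Cp4.1LG20g03220, the more highly counted of them, held 9.41 to 10.1 CPM in H and 8.20 to 9.89 CPM in HL at 20 DAP. The ranges overlapped, and neither member of the pair was called between the accessions at any stage.

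A further group is closest to the GLIP proteins. Cp4.1LG12g09490 (LG12, 5687695 to 5689267), closest to GLIP5 and listed without a GDSL domain, was found in HL at every stage and hardly at all in H. No H library held more than 1 count. The HL libraries held 22, 40, and 53 counts, then 723, 470, and 898 counts, then 723, 935, and 1254 counts at the 3 stages. The gene was at least 12.9-fold higher in HL at 5 DAP, at least 277-fold at 10 DAP, and at least 301-fold at 20 DAP, with edgeR adjusted p-values of 0.00283, 0.00218, and 3.53e-05. Each call held in all alternatives run. Within HL it rose by 5.03 (SE 0.37) on the log2 scale from 5 to 20 DAP (adjusted p = 3.77e-05), to 83.0 ± 28.6 FPKM (SD, n = 3). It lies 2.27 Mb from *CpNST1* on the same linkage group. In bulk seed coats, more cells that express a gene and more RNA in each such cell cannot be told apart, which holds for every difference given here.

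Some further members near GLIP1 and GLIP5 were also called higher in HL at 1 or more stages. Cp4.1LG17g04350, the most abundant of them at 34.8 FPKM over all libraries, held 34.2, 31.9, and 34.9 CPM in H and 63.8, 92.0, and 99.8 CPM in HL at 5 DAP, with no overlap. The difference was 1.33 (SE 0.16, edgeR adjusted p = 0.00165), but its adjusted p was 0.391 when all 18 libraries shared one estimate of the spread. At 10 DAP it held 73.4, 2.67, and 82.5 CPM in H and 79.1, 72.1, and 2.86 CPM in HL, so 1 library of each accession stood far below the others. At 20 DAP it held 47.4, 41.5, and 42.2 CPM in H and 25.5, 22.7, and 44.9 CPM in HL. These ranges overlapped, and the difference was not called. Cp4.1LG03g14890 held 0.857, 0.326, and 1.08 CPM in H and 5.62, 5.85, and 3.02 CPM in HL at 5 DAP, a difference of 2.67 (SE 0.46, adjusted p = 0.00641). It stayed higher in HL at 10 DAP (at least 9.14-fold, adjusted p = 0.0149, lost without HL replicate 1 or 2, 0.0587 and 0.0679). By 20 DAP it had fallen in HL by 2.88 (SE 0.37) on the log2 scale to 0.536 to 0.750 CPM, below the 0.960 to 1.84 CPM in H. Cp4.1LG03g14880, closest to GLIP1, was near nothing at 5 DAP in both accessions. It held 0.107, 0.333, and 0.327 CPM in H and 5.49, 3.84, and 10.5 CPM in HL at 10 DAP, and the differences of 4.69 (SE 0.63, adjusted p = 0.00874) at 10 DAP and 2.86 (SE 0.56, adjusted p = 0.00737) at 20 DAP held in all alternatives run. Of the 4 members closest to GLIP1, it alone was called between the accessions.

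A number of members rose with age in both accessions. Cp4.1LG10g05340, closest to At5g45960, held 12.2, 12.7, and 12.02 CPM in H at 5 DAP, 151, 51.5, and 90.0 CPM at 10 DAP, and 528, 497, and 544 CPM at 20 DAP. The HL libraries held 6.03, 5.95, and 7.09 CPM, then 13.3, 16.6, and 12.9 CPM, then 97.2, 80.5, and 96.7 CPM. HL lay below H without overlap at each stage and rose later. The rise from 5 to 20 DAP was 5.41 (SE 0.11) on the log2 scale in H and 3.85 (SE 0.14) in HL. The HL over H difference was -2.52 (SE 0.14, edgeR adjusted p = 4.66e-05) at 20 DAP and held in all alternatives run. At 10 DAP it was -2.76 (SE 0.40, adjusted p = 0.0108), which was lost without any 1 HL library (0.0519 to 0.0559), and at 5 DAP it was -0.96 (adjusted p = 0.0013), short of the fold limit.

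Cp4.1LG03g02910, closest to At2g38180 and second in the family at 126 FPKM, followed a like course. It held 22.9 to 24.9 CPM in H and 26.7 to 29.8 CPM in HL at 5 DAP. Seed coats of 20 DAP held 387, 408, and 502 CPM in H and 166, 146, and 259 CPM in HL, so all H libraries were above all HL libraries. At 10 DAP H replicate 1 alone had 211 CPM, and the other 5 libraries had 4.44 to 24.6 CPM. The difference at 20 DAP was -1.19 (SE 0.24, edgeR adjusted p = 0.00795), with an adjusted p of 0.201 in the fit of all 18 libraries. The rise from 5 to 20 DAP was 4.20 (SE 0.14) in H and 2.75 (SE 0.23) in HL on the log2 scale.

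A set of 3 members was near 0 until 10 DAP in both accessions and present at 20 DAP. Cp4.1LG20g02720 and Cp4.1LG09g09350, on different linkage groups, are both closest to At1g71250, and Cp4.1LG02g00750 is closest to At4g26790. Cp4.1LG20g02720, listed without a GDSL domain, held at most 0.301 CPM in any of the 12 earlier libraries. At 20 DAP it held 92.4, 130, and 140 CPM in H and 173, 119, and 18.3 CPM in HL. Cp4.1LG09g09350 held 39.5, 34.2, and 24.4 CPM in H and 111, 34.0, and 0 CPM in HL. Cp4.1LG02g00750 held 20.7, 26.0, and 21.2 CPM in H and 45.6, 29.9, and 3.89 CPM in HL. All 3 were thus similar among the H libraries, while within HL replicate 1 was highest and replicate 3 lowest. Among the HL libraries, replicate 1 also had the most counts in both lists of seed storage tissue, while the fewest were in replicate 3 by the shorter list and in replicate 2 by the longer one. Among the H libraries both lists were lowest in replicate 3, where Cp4.1LG09g09350 was lowest, Cp4.1LG20g02720 was highest, and Cp4.1LG02g00750 lay between the other two. The part of storage tissue in these levels was not tested. At 20 against 5 DAP, Cp4.1LG20g02720 was at least 856-fold higher in H and at least 717-fold higher in HL (edgeR adjusted p = 6.87e-06 and 0.00212). Cp4.1LG09g09350 was at least 231-fold higher in H (adjusted p = 1.66e-05) and was not tested in HL because of the filter on low counts. Cp4.1LG02g00750 was at least 160-fold higher in H and at least 183-fold in HL (adjusted p = 1.9e-06 and 0.000786). Their HL over H differences at 20 DAP were -0.23 (SE 0.66), 0.56 (SE 1.25), and 0.22 (SE 0.69), within the spread between the libraries.

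**Figure D3:**
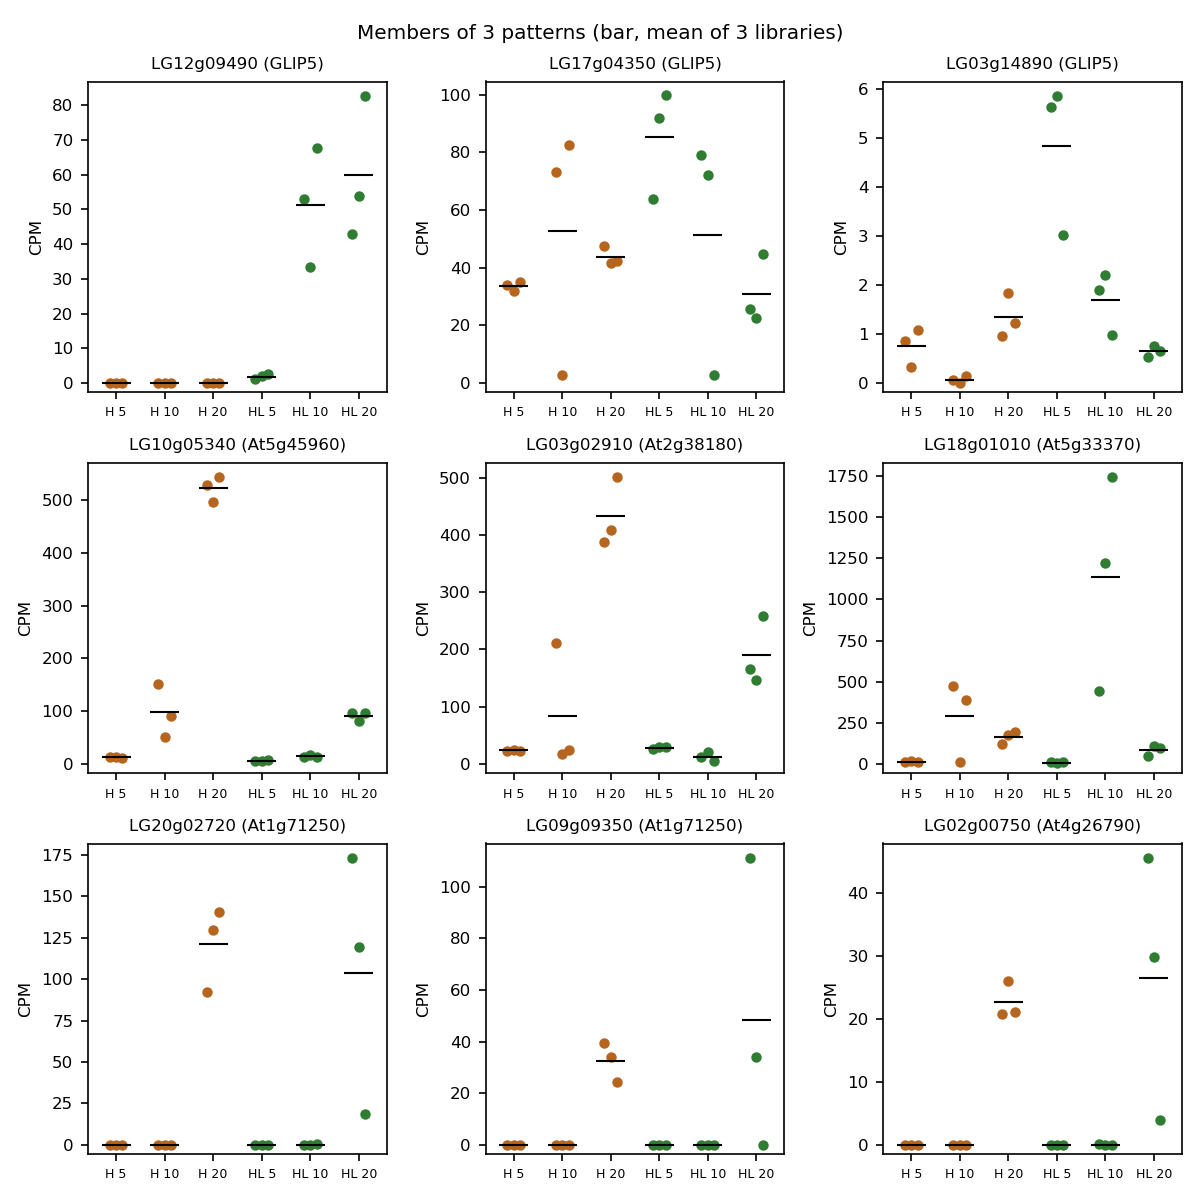
CPM (vertical axis, a scale for each panel) of 9 members by accession and stage (horizontal axis, DAP). The top row holds those near GLIP5 and the bottom row those present at 20 DAP. The middle row holds Cp4.1LG10g05340, Cp4.1LG03g02910, and Cp4.1LG18g01010. Each point is 1 library, brown for H and green for HL, and the bar is the mean of 3. In the bottom row HL replicate 3 lies lowest at 20 DAP, at 18.3, 0, and 3.89 CPM.

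Further members also rose with age. Cp4.1LG01g05360, closest to the drought-induced CPRD49 of cowpea, rose from 7.51 to 14.6 CPM to 52.8 to 67.1 CPM in H and from 9.20 to 13.5 CPM to 67.5 to 80.0 CPM in HL, by 2.43 (SE 0.25) and 2.66 (SE 0.16) on the log2 scale. Cp4.1LG04g02550, closest to At2g04570, rose by 5.04 (SE 0.26) in H. At 20 DAP it held 7.68, 7.64, and 8.52 CPM in H and 2.92, 3.46, and 2.84 CPM in HL, without overlap, and the difference of -1.37 (SE 0.19, edgeR adjusted p = 0.00204) had an adjusted p of 0.0524 in the fit of all 18 libraries. Cp4.1LG10g05390, closest to At5g45920, rose from 10.2 to 15.6 CPM to 25.5 to 31.0 CPM in H and from 7.35 to 7.69 CPM to 38.9 to 41.0 CPM in HL. In HL it lay below H at 5 DAP and above H at 20 DAP, without overlap at either stage. Neither of these differences between the accessions was called.

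The members related to anther and pollen proteins had their highest levels at other stages. Cp4.1LG19g08760 is closest to EXL3, an extracellular lipase of the *Arabidopsis* pollen coat. It held 0 counts in all H libraries at 5 DAP, 45.8, 2.47, and 35.8 CPM at 10 DAP, and 6.97, 8.06, and 10.1 CPM at 20 DAP. In HL it held at most 0.101 CPM, then 25.5, 53.7, and 115 CPM, then 2.26, 4.96, and 4.82 CPM. It peaked at 10 DAP in both accessions and H replicate 2 was again the low library, as for Cp4.1LG18g01010 and Cp4.1LG17g04350. The difference at 20 DAP was -1.07 (SE 0.33, edgeR adjusted p = 0.0382), and it was not called without any 1 library other than HL replicate 3 (0.0419 to 0.122, the lowest with a fold under the limit) or in the fit of all 18 libraries (0.315). Cp4.1LG02g14480, closest to the anther-specific protein APG, held 40.3 to 48.4 CPM in H and 64.3 to 72.8 CPM in HL at 5 DAP. It fell to 0.449 to 6.72 CPM in H and 0.0577 to 2.62 CPM in HL at 20 DAP, by 3.64 (SE 0.62) and 6.13 (SE 0.80) on the log2 scale.

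A set of members present in the young seed coat was lower at 20 DAP than at 5 DAP. The most abundant was Cp4.1LG20g04940, closest to At1g29670, with 67.1 to 89.3 CPM in H and 76.4 to 90.7 CPM in HL at 5 DAP. At 10 DAP it held 73.2, 12.5, and 92.2 CPM in H and 30.5, 172, and 149 CPM in HL. Its highest group mean was in HL at 10 DAP, so its fall was not steady there. At 20 DAP it held 25.4, 30.1, and 29.7 CPM in H and 12.6, 12.4, and 12.2 CPM in HL, without overlap. The difference of -1.20 (SE 0.11) had an edgeR adjusted p of 0.000416, and one of 0.118 in the fit of all 18 libraries. Of the 4 members closest to At1g29670, 3 fell in both accessions. These included Cp4.1LG10g05640, which fell by 3.51 (SE 0.34) in H and by 5.50 (SE 0.69) in HL on the log2 scale, and Cp4.1LG19g06470, which had 0 counts in every HL library at 20 DAP and was there at least 48.5-fold lower than at 5 DAP. Cp4.1LG09g05420, closest to At3g26430, fell from 57.0 to 69.9 CPM to 4.48 to 6.15 CPM in H and from 58.9 to 69.2 CPM to 5.28 to 6.67 CPM in HL. Its fall was alike in size in both, 3.53 (SE 0.16) and 3.36 (SE 0.13) on the log2 scale, and the member Cp4.1LG09g05340 nested in it on the other strand had at most 3 counts in any library.

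Several other members were also called at 20 DAP. Cp4.1LG05g07790 is closest to At4g10955 and listed without a GDSL domain. At 20 DAP it held 24.1, 27.4, and 23.5 CPM in H and 4.05, 2.02, and 1.19 CPM in HL. The difference was -3.36 (SE 0.39, edgeR adjusted p = 0.000923). At 5 DAP the accessions overlapped, at 12.4 to 19.9 CPM and 11.8 to 17.5 CPM. Cp4.1LG19g06830, closest to At1g28570, was lower in HL by 1.65 (SE 0.34, adjusted p = 0.00919) on the log2 scale. Cp4.1LG03g14330, whose description joins a GDSL domain to inositol oxygenase, an enzyme of *myo*-inositol breakdown, held 53.0, 50.5, and 62.0 CPM in H and 24.4, 17.7, and 15.2 CPM in HL at 20 DAP, lower in HL by 1.53 (SE 0.19, adjusted p = 0.00116). At 10 DAP it held 106, 35.7, and 113 CPM in H and 112, 260, and 354 CPM in HL, which overlapped, with a difference of 1.52 (SE 0.58, adjusted p = 0.135). Its reads may come from either portion of this gene model, since only the sum per gene was deposited.

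A pair on LG03, both closest to At5g14450, overlaps on opposite strands over 1430 bases (3552353 to 3553782). Cp4.1LG03g07240 held 8.51, 7.50, and 8.14 CPM in H and 25.9, 24.9, and 26.1 CPM in HL at 20 DAP, a difference of 1.67 (SE 0.12, edgeR adjusted p = 0.000118). H had fallen from 24.0 to 33.6 CPM at 5 DAP and HL had 28.2 to 35.0 CPM there. The partner Cp4.1LG03g07280, listed without a GDSL domain, held 14.8 to 28.6 CPM in all libraries. Its HL over H difference at 20 DAP was -0.01 (SE 0.15). Whether counting used the strand is not given in the sources used here, so reads of the shared stretch cannot be told apart. The third most abundant member of the family, Cp4.1LG08g10180, closest to At5g03610, stayed within 103 to 262 CPM in all libraries. At 20 DAP it was higher in HL by 0.77 (SE 0.12, adjusted p = 0.00296) on the log2 scale, which is short of the fold limit.

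Cp4.1LG19g03820, closest to At5g03820, was led by HL early. It held 0.333, 0.606, and 0.564 CPM in H and 7.35, 6.47, and 8.19 CPM in HL at 5 DAP, a difference of 3.85 (SE 0.24, edgeR adjusted p = 0.000147). At 20 DAP the accessions overlapped, with 8.64, 4.67, and 0.192 CPM in H and 6.07, 1.96, and 1.91 CPM in HL. The higher level in HL at 10 DAP, at least 9.58-fold (adjusted p = 0.0119), was lost without H replicate 3, HL replicate 2, or HL replicate 3 (0.0506 to 0.0596). Cp4.1LG12g04030, closest to At4g01130 and 0.518 Mb from *CpNST1*, was higher in HL at 10 DAP by 1.18 (SE 0.21, adjusted p = 0.0166). Its H libraries held 5.00 to 7.15 CPM and its HL libraries 12.6 to 15.3 CPM, without overlap, yet the call was lost without H replicate 3 or any 1 HL library (0.0537 to 0.0698). At 5 and 20 DAP the order was reversed, also without overlap, and neither difference was called. H held 4.86 to 5.97 CPM and HL 2.33 to 3.60 CPM at 5 DAP. At 20 DAP H held 1.60 to 3.33 CPM and HL 0.330 to 1.15 CPM.

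Counted over the family, differences between the accessions were few at 5 DAP and more at 20 DAP. A member was called when its adjusted p did not exceed 0.05 and its log2 fold change was 1 or more in size. At 5 DAP, 7 of 49 tested members were higher in HL (14.3%), where 5.53% of all features tested were higher. No member was called lower by edgeR or DESeq2 (6 at an unadjusted p under 0.05), where 6.43% of all features were lower and 12% were called in either direction. At 10 DAP, 8 of 49 were higher and 2 lower, beside 5.42% and 5.56% of all features (11% in either direction). At 20 DAP, 7 of 53 were higher and 10 lower, beside 8.37% and 12.7% (21.1% in either direction). The median log2 fold change of the tested members was 0.10, 0.43, and -0.15 at the 3 stages, and that of all features was -0.01, -0.04, and -0.01. Members that passed the filter through the group where they are high had to differ, so these shares describe the tested members and not the family.

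The counts at 10 DAP depended on which library was left out. Without H replicate 1 they were unchanged, at 8 higher and 2 lower. Across genes that library was the least like the others of its group, with r of 0.889 and 0.924. The r between H replicates 2 and 3 was 0.975. Without H replicate 3, 5 members were higher and 1 was lower. Without HL replicate 1, 2, or 3, the higher members numbered 4, 3, and 4, and none was lower by edgeR. Without H replicate 2, the library low for Cp4.1LG18g01010, 8 were higher and 5 were lower. In all, 22 members were called at 1 or more stages. Those higher at all 3 stages were Cp4.1LG12g09490, Cp4.1LG07g09170, and Cp4.1LG07g09380, and Cp4.1LG10g05340 was the member lower at both 10 and 20 DAP.

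**Figure D4:**
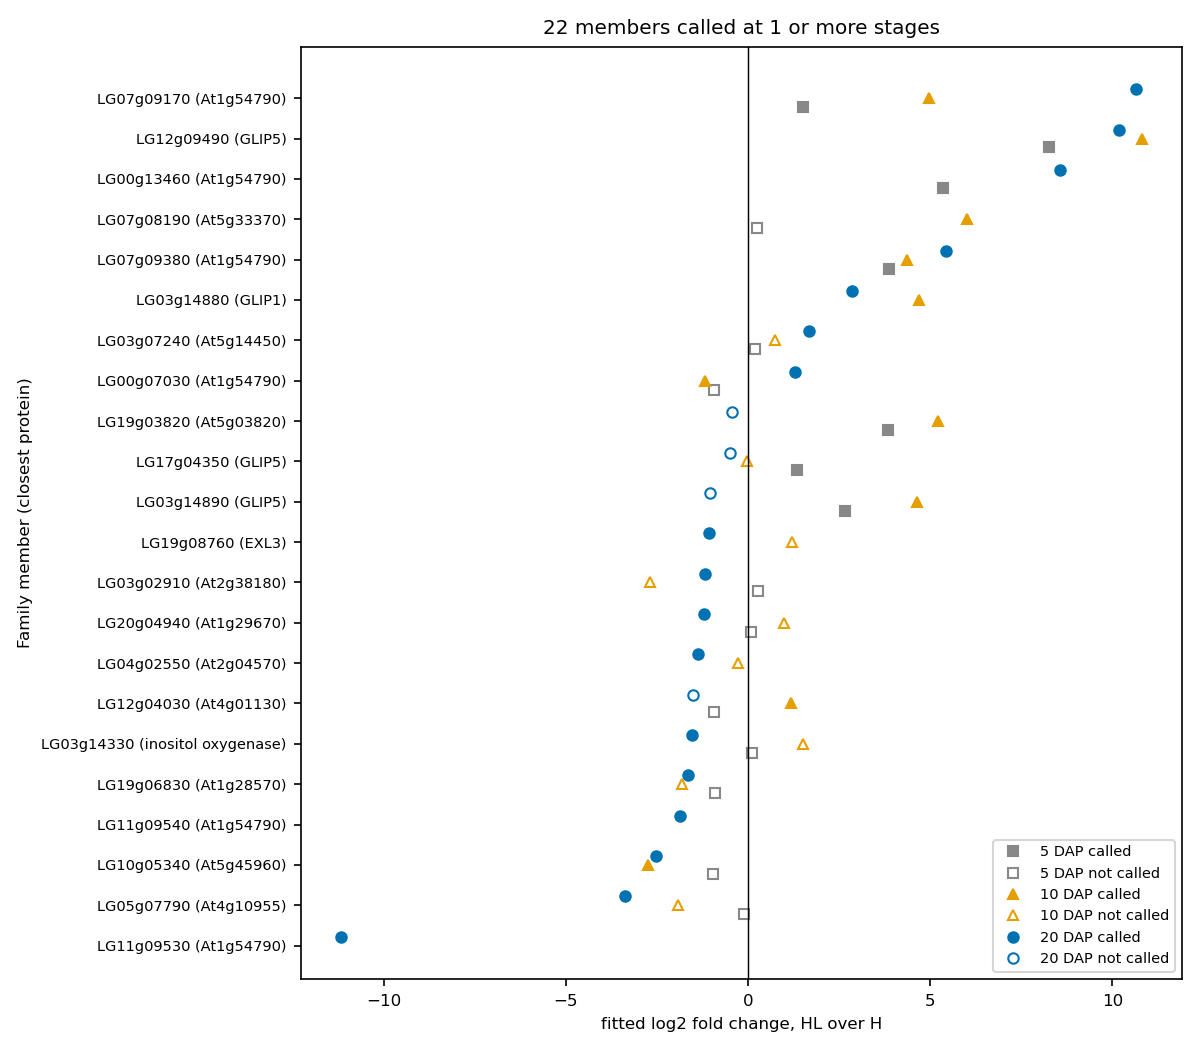
Fitted log2 fold change of HL over H (horizontal axis) at 5 DAP (squares), 10 DAP (triangles), and 20 DAP (circles) for the 22 members called at 1 or more stages, with filled symbols where called and no symbol where a member was not tested. Members with nothing detectable in one accession have fitted values that depend on the prior count of the fit, such as Cp4.1LG12g09490 and Cp4.1LG11g09530 at the right and left edges, and their folds are given in the text as lower bounds.

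More members were called for age than for accession. From 5 to 20 DAP, 15 of 51 tested members rose in H and 15 fell, beside 19.8% and 20.6% of all features (40.4% in either direction). In HL 16 of 54 rose and 23 fell, beside 18% and 23.1% of all features (41.1% in either direction). These comparisons share no library. The 10 members that rose in both were 66.7% of those that rose in H and 62.5% of those in HL, and the 13 that fell in both were 86.7% and 56.5%. Over all features tested the matching shares were 56.4% and 63.6% for those that rose and 69.2% and 63.0% for those that fell. The 10 that rose included Cp4.1LG18g01010, Cp4.1LG03g02910, Cp4.1LG10g05340, Cp4.1LG20g02720, and Cp4.1LG01g05360, and the 13 that fell included Cp4.1LG20g04940, Cp4.1LG09g05420, and Cp4.1LG02g14480. No member was called as rising in one accession and falling in the other. A member not tested in one accession could not be, such as Cp4.1LG07g09170, which was not tested for age in H. Of the 5 members called as rising in H only, 4 were not tested in HL. Of the 6 in HL only, 4 were not tested in H. Among those that fell, 0 of 2 in H only and 2 of 10 in HL only were not tested in the other accession.

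Whether H and HL changed unequally with age was tested in one fit of all libraries. In it 4 of 61 members had a more positive change in HL and 7 a more negative one, beside 6.03% and 7.85% of all features (13.9% in either direction). The more positive ones were Cp4.1LG07g09170, Cp4.1LG00g07030 (2.22, SE 0.47), Cp4.1LG03g07240 (1.49, SE 0.19), and Cp4.1LG10g05390 (1.26, SE 0.25). Among the more negative ones were Cp4.1LG11g09530, Cp4.1LG05g07790 (-3.25, SE 0.74), Cp4.1LG03g14890 (-3.70, SE 0.71), and Cp4.1LG10g05340 (-1.56, SE 0.37). The edgeR adjusted p-values of these 8 members ranged from 7.2e-05 to 0.00852.

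**Figure D5:**
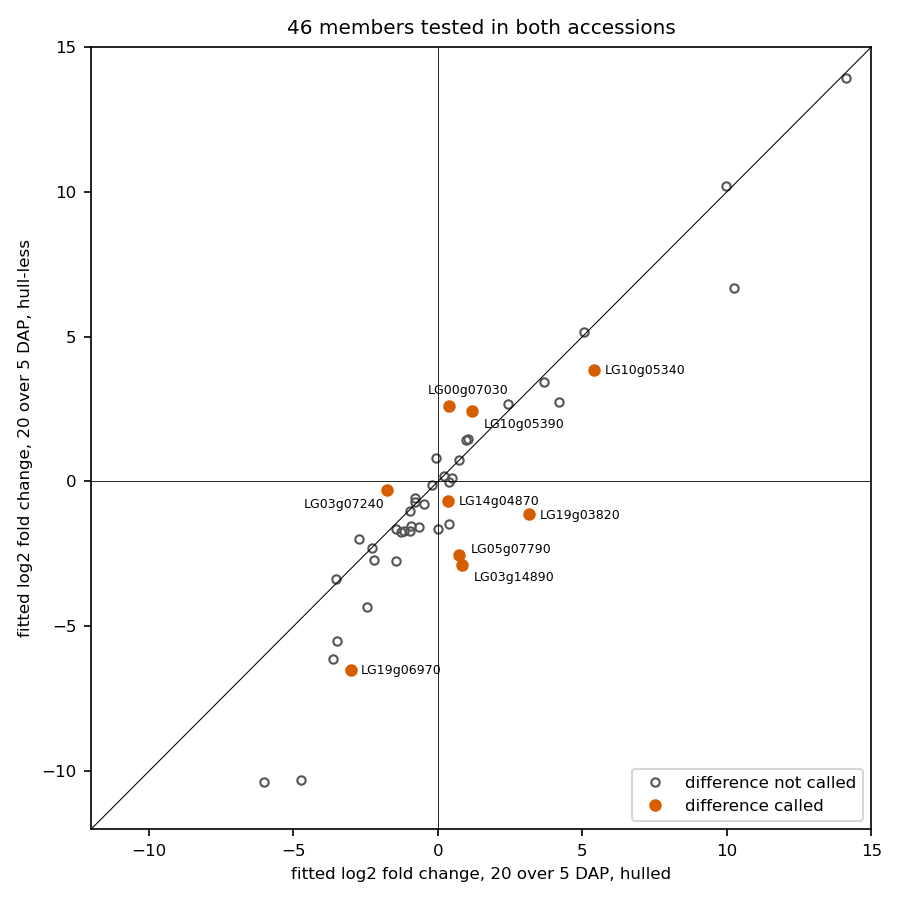
Fitted log2 fold change from 5 to 20 DAP in H (horizontal axis) and in HL (vertical axis) for the 46 members tested in both accessions. The line marks equal change, and filled points are the 9 members for which the difference between the accessions was called. Cp4.1LG10g05340 lies under the line, with 5.41 in H and 3.85 in HL.

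Other genes of the same chemistry were counted by lists of description words. Of all features tested, 8.37% were called higher and 12.7% lower in HL at 20 DAP. From 5 to 20 DAP, 19.8% of all features rose and 20.6% fell in H, and 18% rose and 23.1% fell in HL. Of the genes for cutin, suberin, and wax, 78 of 114 were tested at 20 DAP, and 8 were higher and 15 lower in HL (median log2 fold change -0.22, beside -0.01 for all features). From 5 to 20 DAP, 11 of 85 rose and 32 fell in H, and 13 of 85 rose and 39 fell in HL. Of 60 genes with PF13839, none of which met the conditions for the GDSL family, 50 were tested at 20 DAP, with 2 higher and 11 lower in HL (median 0.03). Of 44 carboxylesterases, 34 were tested, with 3 higher and 6 lower (median -0.06), and of 7 pectin acetylesterases 6 were tested, with 1 higher and 1 lower. The green tissue genes stood at 47 higher and 6 lower of 86, and the SCW orthologs at 1 higher and 33 lower of 53.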

How the data were processed

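The authors deposited raw counts per gene for 18 libraries, which are whole numbers and were not normalized, and FPKM values, which the methods state were computed with Cufflinks. The aligner, the counting tool, and its strand setting are not given in the sources used here. The submitters' processing notes name edgeR. The authors' own comparisons (fold changes and p-values) were in the table and were not used.

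Counts were filtered with filterByExpr, scaled by TMM, and fitted with the quasi-likelihood test of edgeR 4.0.16 (R 4.3.3) on the 6 libraries of a comparison, or on all 18 for the difference between accessions in the change with age. P-values were adjusted by Benjamini-Hochberg over all features. The SE is the absolute log2 fold change over the square root of F. CPM values were scaled by TMM over all 18 libraries. A fold against a group with at most 3 counts in each library was computed against 3 counts per library and covers counting error only. The scripts were tested on simulated data.

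Named members were those with the largest changes among called members that averaged 20 counts or more and did not overlap between groups, the 8 highest by FPKM, those called at all 3 stages or in opposite directions, and neighbors within 20 kb. The other members named (Cp4.1LG20g03220, Cp4.1LG00g09030, and Cp4.1LG09g05340) were chosen after their values were seen. The members and lists were chosen with earlier results of these data known. The alternatives tried were DESeq2 1.42.0, scaling by RLE or by the upper quartile, no filter or one at 20 mean counts, no fold limit, a replicate block, all libraries in one fit, and leaving out each library. No sequences were printed, since none matched the identifiers.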

Additional observations from a re-analysis of the deposited data

Results flagged for a closer look

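In 10 named members the change from 5 to 20 DAP differed between HL and H, by a contrast in one edgeR fit of all 18 libraries. Values are the HL minus H difference on the log2 scale. The change was more positive in HL for Cp4.1LG07g09170 (9.28), Cp4.1LG00g07030 (2.22), Cp4.1LG03g07240 (1.49), and Cp4.1LG10g05390 (1.26). It was more negative in HL for Cp4.1LG11g09530 (-9.38), Cp4.1LG19g03820 (-4.29), Cp4.1LG03g14890 (-3.70), Cp4.1LG19g06970 (-3.47), Cp4.1LG05g07790 (-3.25), and Cp4.1LG10g05340 (-1.56). The values of Cp4.1LG07g09170 and Cp4.1LG11g09530 depend on the prior count of the fit, because one accession had 0 counts in every library at 20 DAP. The call for Cp4.1LG19g06970 was lost without HL 20 DAP replicate 3 (edgeR adjusted p = 0.0531), and the other 9 were kept when any 1 library was left out.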

How the results depend on the processing

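Of the 95 calls on named members in the 6 comparisons, 75 were kept in every alternative, including 11 of 17 at 20 DAP and 3 of 10 at 10 DAP, and none changed sign. At 5 DAP, 11 members were higher and 5 lower without a fold limit (7 and 0 with it), and 1 was lower without a filter and in the fit of all 18 libraries. At 10 DAP (8 higher, 2 lower), 5 were higher among features averaging 20 counts or more and 3 with the replicate block. The lower ones numbered 1 under RLE scaling, upper-quartile scaling, and no filter, 5 under DESeq2, 0 with the replicate block, and 6 in the fit of all 18 libraries. For unequal change with age in H and HL, 12 members were more negative (7) when only the 12 libraries of 5 and 20 DAP were fitted.

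When single libraries were left out, the members higher and lower numbered 6 to 7 and 0 to 2 at 5 DAP, 3 to 8 and 0 to 5 at 10 DAP, and 6 to 8 and 8 to 14 at 20 DAP. They numbered 14 to 18 and 15 to 18 for age in H, 16 to 19 and 22 to 25 for age in HL, and 4 to 4 and 6 to 9 for the difference between accessions.

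The labels do not say whether replicate numbers pair the samples, and the main fits did not pair them. Deviations of libraries with the same number correlated from -0.30 to 0.36 at 5 DAP, -0.22 to 0.17 at 10 DAP, and -0.13 to 0.19 at 20 DAP, and at most 4 of 6 libraries correlated best with their own number. Under upper-quartile scaling the median over all features was -0.16 for age in HL and -0.12 at 10 DAP on the log2 scale.

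With 3 libraries per group, members with few counts were often not tested, and 39 of the 100 were tested in no comparison.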
